A study of Mus musculus with 24 samples.

Results

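Regulatory T (Treg) cells sorted from mouse melanomas 1 day after an anti-JAML antibody were compared with Treg cells sorted after an isotype control antibody, across all genes. The comparison rests on 8 of the 24 bulk RNA-seq libraries of the study, the 4 Treg libraries after anti-JAML and the 4 after isotype, chosen by their labels. In the whole study, mice carrying B16F10-OVA tumours, a melanoma line that expresses the model antigen ovalbumin, were given 200 micrograms of anti-JAML, anti-PD-1 or isotype antibody. Tumours were taken 1 day later, and CD8+ T cells and CD4+ Treg cells (sorted on FOXP3) gave 4 libraries for each of 6 groups. Every library was made by Smart-seq2, a method that amplifies whole polyadenylated transcripts from very few cells, and the labels give an upper limit on the number of cells rather than a count. The labels give no genotype, strain, sex or age, and do not say whether a mouse gave more than 1 library. The p-values therefore reflect spread among libraries, part of which may be technical. In a bulk library, fewer cells of a type and less RNA per cell cannot be told apart.

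Treg cells are CD4+ T cells that restrain other lymphocytes and depend on the transcription factor FOXP3. In tumours they carry high levels of activation receptors such as CD25, CTLA-4 and GITR, and receptors such as CCR8 and CXCR6 that hold T cells in tissue. JAML, the junctional adhesion molecule-like protein encoded by Jaml (also called Amica1), is a receptor on lymphocytes and myeloid cells that binds the epithelial protein CAR and can costimulate T cells.

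Total counts of the Treg libraries were 14859344, 16523768, 19299446 and 16447204 after anti-JAML, and 20302651, 22556460, 16835821 and 13911087 after isotype, in the order of library number used throughout. The number of genes with at least 1 count was 15158, 14436, 14479 and 13413 after anti-JAML, against 13002, 13035, 12643 and 14378 after isotype. Anti-JAML libraries 1 to 3 lay above every isotype library, while anti-JAML library 4 lay within the isotype range and isotype library 4 lay close to the anti-JAML libraries. The means were 14370 ± 719 and 13260 ± 763 genes (SD, n = 4), and the difference of 1107 genes did not pass a two-sided exact permutation test (p = 0.0571, where 4 against 4 can give no less than 0.0286). The first principal component of the 12 Treg libraries, which held 23.3% of their variance, was 41.2, 20.7, -8 and -40.8 after anti-JAML and -54.4, -53.6, -82.4 and 18.9 after isotype. On the second component isotype library 3 lay far from the rest, at -98. Isotype library 4 and anti-JAML library 4 thus stood apart from their groups, and the main counts and the genes whose values turn on isotype library 4 are given below also without it. Whether the labels of these 2 libraries were exchanged cannot be told from the files and was not tested; every fold change below takes the labels as given.

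**Figure D1:**
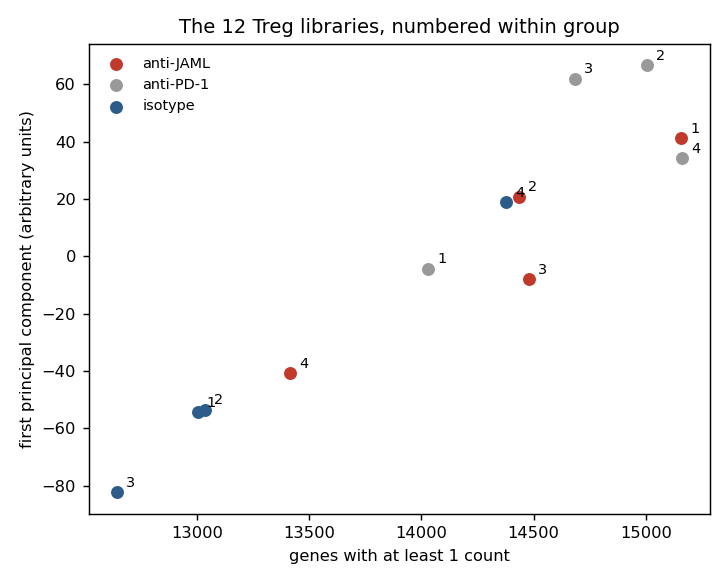
Each point is 1 Treg library, numbered within its group, with the number of genes that had at least 1 count on the x axis and the first principal component of log2 CPM (arbitrary units) on the y axis. Isotype library 4 lies beside anti-JAML library 2, and anti-JAML library 4 lies toward isotype libraries 1 and 2.

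The labelled cell type was checked first on TPM, a unit scaled for gene length. Foxp3 was present in all 8 libraries, at 37.4 to 112 TPM after anti-JAML and 27.5 to 60.5 TPM after isotype. Il2ra, which encodes CD25, stood at 84.9 to 175 TPM after anti-JAML and 51.0 to 105 TPM after isotype. Ctla4 ranged over 692 to 953 TPM after anti-JAML and 721 to 1276 TPM after isotype, and Cd4 over 132 to 318 TPM and 105 to 238 TPM. Cd8a, which defines CD8 T cells, was listed at 0 in all 8 libraries. Reads of Cd8b1, the other CD8 chain, were present, at 41.7 to 62.1 TPM after anti-JAML and 18.7 to 70.04 TPM after isotype. Jaml itself, the gene of the antibody's target, was nearly unread. Its level was 0, 0, 0.154 and 0 TPM after anti-JAML, against 0, 0, 0 and 0.691 TPM after isotype, so 1 library of each group held any read. Its log2 fold change was -1.77 ± 1.91 (SE; 95% interval -5.90 to 2.37), and no difference was detectable at this depth. Without isotype library 4 it turned to 3.03. Of the 8 genes of the JAM family and CAR ligands, Jaml was the 1 that passed the filter on low counts. Pdcd1, which encodes PD-1, was abundant and spread widely, at 866, 972, 396 and 575 CPM (counts scaled to the library total and TMM factor) after anti-JAML and 433, 666, 671 and 986 CPM after isotype. The 2 ranges overlapped almost fully (log2 0.03 ± 0.30, adjusted p = 1).

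Across the transcriptome, no gene passed the threshold, an adjusted p under 0.05 in edgeR's quasi-likelihood test. It called 0 of 12981 genes (0%), with a smallest adjusted p of 0.675. At an unadjusted p under 0.05 there were 471 genes higher (3.63%) and 228 lower (1.76%) after anti-JAML. The 4 anti-JAML values lay wholly above the 4 isotype values for 204 genes (1.57%) and wholly below for 144 (1.11%). The other tools differed, since voom called 0 genes, with 1046 at an unadjusted p under 0.05, while DESeq2 called 87 of 12924 (0.673%), 64 higher and 23 lower. Of those 87 genes, 58 had 0 counts in all libraries of 1 group, 68 averaged under 10 CPM over the Treg libraries, and 39 had ranges that did not overlap. Among genes under 10 CPM, 249 were higher and 72 lower at an unadjusted p under 0.05. Which of these genes were tested depended in part on reads in the anti-PD-1 libraries, as described below. Among genes at 50 CPM or more the counts were 122 and 91. Over all genes the median log2 fold change was 0.02 and 51.3% were positive. These shares are the background for every count below that comes from this fit. Since no gene passed, the values that follow describe these 8 libraries.

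**Figure D2:**
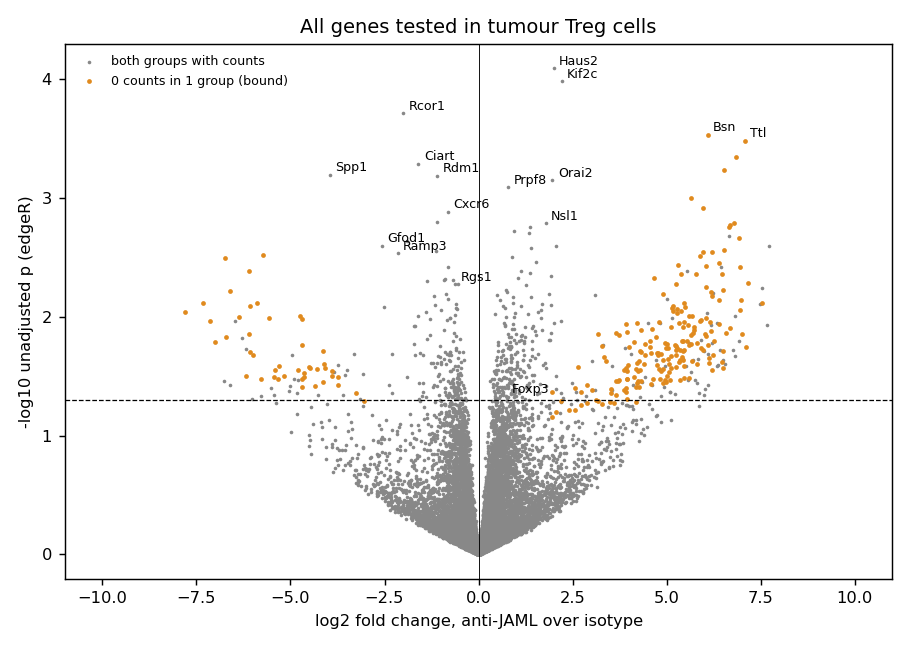
Each of the 12981 genes tested is a point, with its log2 fold change, anti-JAML over isotype, on the x axis and -log10 of the unadjusted edgeR p on the y axis, where a dashed line marks the 0.05 level. Orange genes had 0 counts in all 4 libraries of 1 group and are drawn at a bound, and more of them lie on the right than on the left. Reads in the anti-PD-1 libraries helped decide which of them were tested.

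Haus2, Kif2c and Nsl1, which all act on the mitotic spindle, were among the genes with the smallest p. Haus2 (chromosome 2, 120609383 to 120621560, plus strand, mm10), a subunit of the augmin complex that seeds spindle microtubules, stood at 48.4, 48.8, 99.8 and 37.4 CPM after anti-JAML, against 19.9, 14.6, 13.6 and 10.5 CPM after isotype. All 4 anti-JAML libraries were above all isotype libraries, with library 3 highest (log2 1.998 ± 0.35, adjusted p = 0.675). Kif2c (chromosome 4, 117159639 to 117182639, minus strand), a kinesin that shortens microtubules at centromeres, had 47.7, 14.9, 34.5 and 34.5 CPM after anti-JAML and 10.1, 6.41, 5.02 and 6.95 CPM after isotype. These groups did not overlap either (log2 2.21 ± 0.40, adjusted p = 0.675). For Nsl1, a subunit of the MIS12 kinetochore complex, the values were 11.9, 10.3, 17.5 and 13.8 CPM after anti-JAML, against 3.83, 3.37, 3.16 and 5.16 CPM after isotype (log2 1.79 ± 0.45, adjusted p = 0.853). None of the 3 is a member of the mitosis list described below. Anti-PD-1 was set against the same isotype libraries, so its values share them. Kif2c stood at 36.4, 72.8, 72.9 and 48.4 CPM after anti-PD-1, also above every isotype library. Haus2 had a log2 fold change of 1.605 after anti-PD-1 over isotype, and Nsl1 2.41.

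Orai2, a subunit of store-operated calcium channels, stood at 51.7, 25.4, 21.4 and 44.5 CPM after anti-JAML, against 11.9, 8.997, 7.81 and 7.98 CPM after isotype. The lowest anti-JAML library was above the highest isotype library (log2 1.96 ± 0.44, adjusted p = 0.832). Prpf8, the core protein of the spliceosome, had a smaller and tighter difference, with 142, 114, 115 and 114 CPM after anti-JAML and 76.9, 72.2, 53.6 and 76.6 CPM after isotype. The groups did not overlap (log2 0.80 ± 0.18, adjusted p = 0.853). Anti-PD-1 over isotype gave log2 fold changes of 1.46 for Orai2 and 0.72 for Prpf8.

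Of the 10 named genes with the smallest p in the higher direction, 5 had 0 counts in every isotype library. In all, 195 of the genes tested had 0 counts in all 4 isotype libraries and 45 in all 4 anti-JAML libraries. Of these, 183 and 44 were among the 471 higher and 228 lower genes at an unadjusted p under 0.05. The filter on low counts also used the anti-PD-1 libraries, with 14031 to 15162 genes detected, against 12643 to 14378 after isotype. Their reads could let a gene at 0 after isotype pass, so 195 against 45 cannot show a direction. With only the 8 libraries compared, 208 genes were higher and 154 lower. Bsn, which encodes the presynaptic scaffold bassoon, had 1.77, 2.697, 1.75 and 5.45 CPM after anti-JAML. It was at least 68.1-fold higher than after isotype, taking 3 counts over the 4 isotype libraries as the floor. Ttl, the tubulin tyrosine ligase, had 0.506, 10.8, 4.29 and 7.002 CPM and was at least 135-fold higher. Pomt2, a protein O-mannosyltransferase, was at least 62.9-fold higher. The membrane protein gene Ms4a4a and the protease inhibitor gene Serpine2 were at least 110.0-fold and 102-fold higher, although each was at 0 in anti-JAML library 2. These bounds cover counting error only, because reads amplified from 1 molecule cannot be recognised without molecular identifiers. All 5 of these genes also had counts in each anti-PD-1 library, but those reads helped decide which genes passed the filter. Ms4a4a and Serpine2, at 0 in anti-JAML library 2, could not have passed it without them.

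Among the genes that were lower after anti-JAML, Rcor1 had the smallest p. It encodes CoREST, a scaffold of histone-modifying repressor complexes, and stood at 10.2, 13.7, 7.89 and 7.62 CPM after anti-JAML, against 44.3, 45.6, 50.1 and 18.1 CPM after isotype. Isotype library 4 was the lowest of its group but still above every anti-JAML library (log2 -2.004 ± 0.39, adjusted p = 0.832). Ciart, a repressor of the circadian clock, had 16.2, 9.73, 7.95 and 7.12 CPM after anti-JAML and 33.8, 29.9, 30.5 and 30.3 CPM after isotype. The isotype values were tight and lay wholly above the others (log2 -1.60 ± 0.35, adjusted p = 0.832). Rdm1, an RNA-binding protein tied to DNA repair, had 27.8, 29.6, 33.3 and 24.2 CPM after anti-JAML, against 73.6, 74.6, 55.8 and 42.6 CPM after isotype (log2 -1.10 ± 0.25, adjusted p = 0.832). For anti-PD-1 over isotype the log2 fold changes were -0.885 for Rcor1, -0.091 for Ciart and -0.796 for Rdm1.

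Spp1, which encodes the secreted protein osteopontin, was also among the lower genes with the smallest p. It stood at 7.71, 2.76, 6.30 and 0 CPM after anti-JAML, against 53.8, 65.3, 38.5 and 102 CPM after isotype (log2 -3.95 ± 0.88, adjusted p = 0.832). After anti-PD-1 the same gene had 502, 77.0, 371 and 227 CPM. Macrophages also make osteopontin, and the summed macrophage and monocyte markers were 10.6 to 104 CPM after anti-JAML, 14.4 to 1238 CPM after anti-PD-1 and 22.8 to 128 CPM after isotype. Their part in the Spp1 values was not tested.

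The other lower genes with the smallest p had ranges that did not overlap, which choosing them by p from the same values favours. The scaffold gene Erbin had a log2 fold change of -1.11 ± 0.28, the membrane protein gene Pcnx4 -1.89 ± 0.50, Gfod1 -2.58 ± 0.69, and Ramp3, an accessory protein of peptide hormone receptors, -2.15 ± 0.59 (adjusted p = 0.853 for each). Trbv2, a variable segment of the T-cell receptor beta chain, had 45.5, 20.9, 42.2 and 46.8 CPM after anti-JAML and 95.8, 88.2, 96.0 and 59.9 CPM after isotype (log2 -1.13 ± 0.31). Segments of this family share sequence, so its counts are uncertain. Anti-PD-1 over isotype gave -1.07 for Erbin, -0.77 for Pcnx4, -1.12 for Gfod1, -0.85 for Ramp3 and -1.485 for Trbv2.

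**Figure D3:**
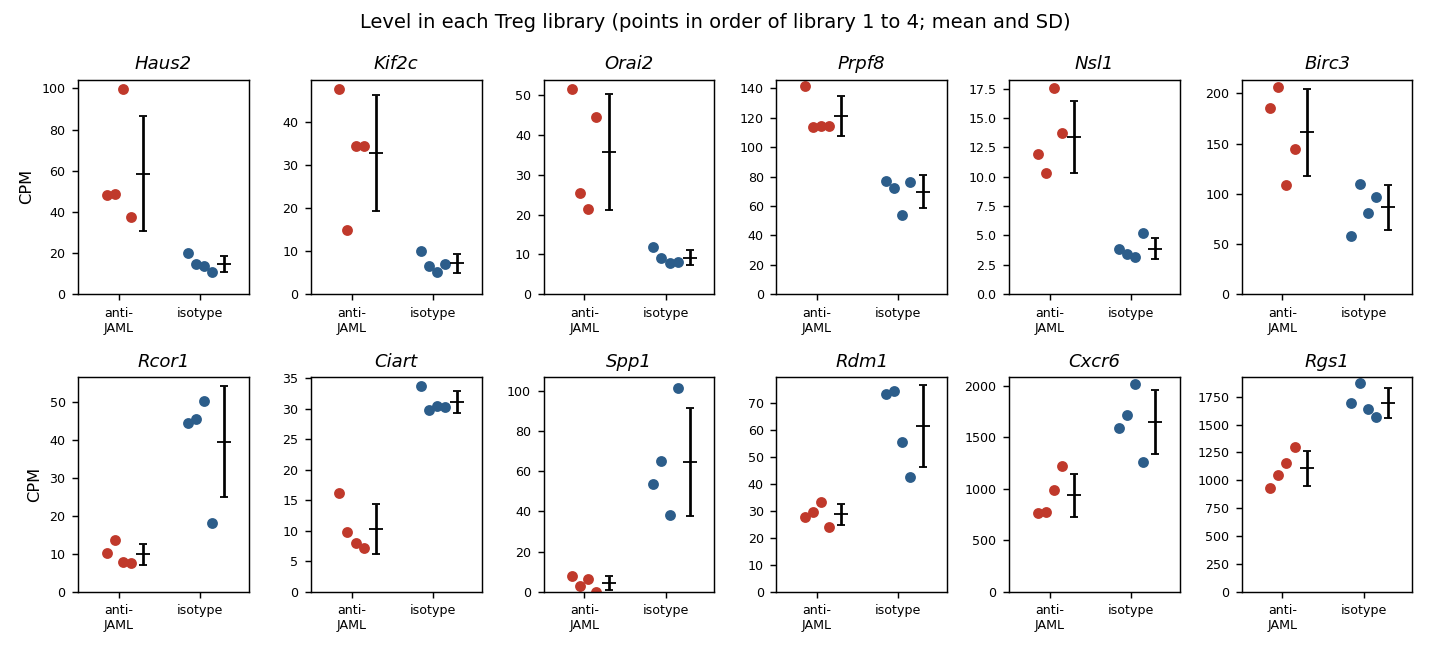
CPM of 12 genes in each anti-JAML (left) and isotype (right) Treg library, with the mean and SD of the 4 libraries beside the points. In the upper row the anti-JAML values are the higher ones, with a slight overlap for Birc3; in the lower row they are the lower ones, and no ranges overlap.

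Genes that define Treg cells did not move in 1 direction. Of the 14 identity genes tested, 7 were positive and 7 negative, with a median log2 fold change of 0.04, and 1 was higher and 0 lower at an unadjusted p under 0.05. That gene was Foxp3, the lineage factor, at 180, 118, 76.0 and 115 CPM after anti-JAML, against 62.1, 65.7, 59.0 and 106 CPM after isotype. Isotype libraries 1 to 3 lay below all the anti-JAML libraries and isotype library 4 lay among them (log2 0.74 ± 0.34, 95% interval 0.01 to 1.47, unadjusted p = 0.0466, adjusted p = 0.904). The cells had been sorted on FOXP3. Il2ra stood at 352, 322, 253 and 218 CPM after anti-JAML and 144, 279, 204 and 230 CPM after isotype, with overlapping ranges (log2 0.42 ± 0.22, adjusted p = 1). Ikzf2, which encodes the transcription factor Helios, had 0.18 ± 0.19. Ctla4, an inhibitory receptor that strips costimulatory ligands from other cells, stood at 782, 701, 715 and 814 CPM after anti-JAML and 830, 1384, 969 and 742 CPM after isotype (log2 -0.38 ± 0.19, 95% interval -0.79 to 0.02, adjusted p = 0.975). Tnfrsf18, which encodes GITR, had -0.39 ± 0.20.

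**Figure D4:**
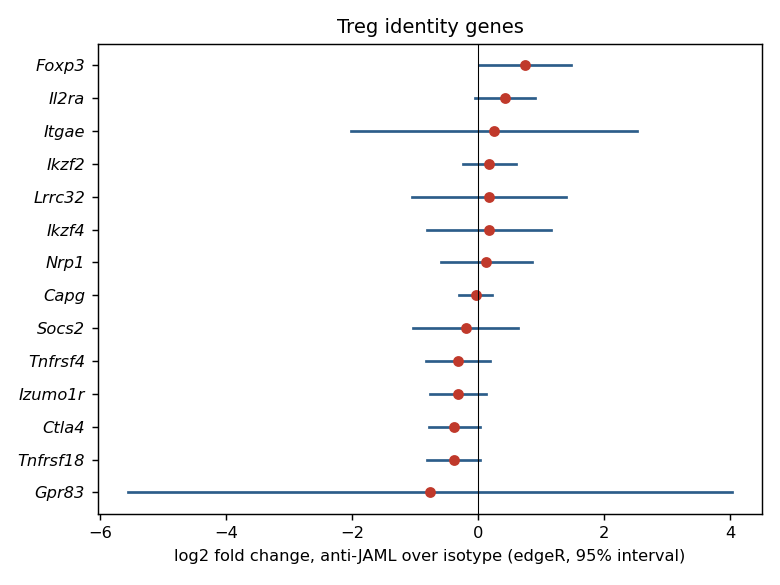
Log2 fold change, anti-JAML over isotype, of each Treg identity gene tested (red point) with its 95% interval from edgeR (blue line). Foxp3 is the highest, at 0.74, and its interval from 0.01 to 1.47 is the one that leaves out 0.

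Suppressive mediators were likewise mixed, with 7 of 14 positive and a median of 0.02. In this list 2 were lower and 0 higher at an unadjusted p under 0.05. Tigit, an inhibitory receptor, stood at 1467, 1612, 1471 and 1923 CPM after anti-JAML, against 1728, 2465, 2343 and 1953 CPM after isotype, with an overlap at the edge of the ranges (log2 -0.39 ± 0.15, adjusted p = 0.853). Areg, a growth factor for tissue repair, had 16.7, 3.81, 21.8 and 13.6 CPM after anti-JAML and 12.7, 79.5, 47.8 and 24.4 CPM after isotype (log2 -1.56 ± 0.59, adjusted p = 0.853). In the other direction the granzyme gene Gzma was low in both groups, with 2.78, 4.397, 4.77 and 14.9 CPM after anti-JAML and 0, 0, 0 and 1.93 CPM after isotype, and the groups did not overlap (log2 3.81 ± 1.78, adjusted p = 0.942). The reads of Gzma after isotype all came from isotype library 4, and without that library the adjusted p was 0.253 with the group at 0. Among regulators of effector and tissue Treg cells, 10 of 17 were positive, with a median of 0.07. Ccr8, a chemokine receptor typical of tumour Treg cells, had 441, 361, 394 and 532 CPM after anti-JAML, against 570, 734, 582 and 485 CPM after isotype (log2 -0.46 ± 0.21, adjusted p = 0.916). The transcription factor Rora had 0.44 ± 0.24. Of the 13 inhibitory receptors 4 were positive, with a median of -0.07. Without isotype library 4 it was 6 of 13 (median -0.025), with 3 (23.1%) lower and 0 higher at an unadjusted p under 0.05. The suppressive list then had 7 of 14 positive (median 0.007), with 4 (28.6%) lower and 1 (7.14%) higher. Over all genes tested in that fit, 2.66% were lower and 7.77% higher. These lists share members, among them Tigit.

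Among tissue residency genes, Cxcr6 and Rgs1 were lower in every anti-JAML library than in any isotype library. Of 15 tested, 7 were positive and 8 negative (median -0.19), and 4 were lower and 0 higher at an unadjusted p under 0.05. Cxcr6, the receptor for the membrane-bound chemokine CXCL16, stood at 768, 778, 984 and 1217 CPM after anti-JAML, against 1593, 1719, 2017 and 1262 CPM after isotype. The groups did not overlap, though anti-JAML library 4 and isotype library 4 lay close together (log2 -0.81 ± 0.20, adjusted p = 0.853). Rgs1, which dampens chemokine receptor signalling, had 927, 1044, 1157 and 1295 CPM after anti-JAML and 1693, 1875, 1640 and 1564 CPM after isotype. Here the ranges lay further apart (log2 -0.61 ± 0.18, adjusted p = 0.853). Anti-PD-1 over isotype gave -0.76 for Cxcr6 and -0.997 for Rgs1. Xcl1, a chemokine gene, had 24.8, 25.2, 30.6 and 20.6 CPM after anti-JAML and 38.3, 27.9, 67.0 and 97.3 CPM after isotype (log2 -1.19 ± 0.51, adjusted p = 0.88). The fourth, the adhesion gene Crtam, was at 0 in all anti-JAML libraries and had 0, 0.877, 0 and 29.0 CPM after isotype, so isotype library 4 carried nearly all of it. Without isotype library 4 the list median was -0.05, with 4 members lower at an unadjusted p under 0.05, and without anti-JAML library 4 as well it was -0.16, with 3. Over all genes tested, 360 of 13545 (2.66%) were lower in the first of these fits and 383 of 13354 in the second. The early activation and retention receptor Cd69 had -0.47 ± 0.28 (adjusted p = 1). Chemokine receptors and homing genes as a list were balanced, with 10 of 21 positive and a median of -0.03. Cxcr6 and the integrin chain Itga4 were the 2 of them whose anti-JAML values lay wholly below the isotype values. Itga4 stood at 109, 117, 109 and 99.7 CPM after anti-JAML and 156, 126, 125 and 121 CPM after isotype (log2 -0.28 ± 0.16, adjusted p = 1).

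Signalling lists showed small and mostly scattered differences. For NF-kB subunits and targets 14 of 18 were positive, with a median of 0.06. Birc3, an inhibitor of apoptosis and NF-kB target, stood at 185, 206, 109 and 145 CPM after anti-JAML, against 58.2, 110, 80.7 and 97.2 CPM after isotype, with 1 isotype library level with the lowest anti-JAML library (log2 0.90 ± 0.25, adjusted p = 0.853). For the IL-2 and STAT5 response 9 of 18 were positive (median 0.06), with 3 higher and 1 lower at an unadjusted p under 0.05. The lower one was the cytokine gene Lif, which isotype library 3 alone carried at 5.82 CPM among the isotype libraries, and the higher ones were Stat5a, which relays IL-2 signals, with 1.20 ± 0.46, the cyclin gene Ccnd3 with 0.49 ± 0.20, and Myc, a driver of growth, with 0.47 ± 0.18 (adjusted p = 0.853 for each). Myc stood at 149, 140, 143 and 98.4 CPM after anti-JAML and 93.8, 86.8, 84.8 and 118 CPM after isotype, with library 4 of each group on the other side. Myc had 0.59 without isotype library 4, and 0.41 to 0.59 over the fits that left out 1 library. Of the early T-cell receptor response genes 10 of 22 were positive (median -0.12). Of PI3K, AKT and mTOR pathway genes it was 16 of 26 (median 0.05), with Rps6kb1, the kinase S6K1, at 0.54 ± 0.24 (adjusted p = 0.89). Of TNF receptor family and costimulator genes it was 9 of 17 (median 0.07), and of helper cytokines and lineage factors 10 of 14 (median 0.27). Without isotype library 4, the NF-kB list had 15 of 18 positive (median 0.167) and the IL-2 and STAT5 list 10 of 18 (median 0.197). Each then had 4 members (22.2%) higher at an unadjusted p under 0.05, with 0 and 1 lower. Over all genes tested in that fit, 7.77% were higher and 2.66% lower.

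Cell-cycle genes had mostly positive values. In the mitosis list 19 of 24 were positive, with a median log2 fold change of 0.37, and 3 were higher and 0 lower at an unadjusted p under 0.05. After anti-PD-1, set against the same isotype libraries, 24 were positive, with a median of 1.01. Summed over the list, the level was 3278, 2528, 2733 and 2372 CPM after anti-JAML, against 3191, 2055, 1960 and 2262 CPM after isotype, so isotype library 1 lay among the anti-JAML libraries. Bub1, a kinase of the spindle checkpoint, had 42.4, 56.3, 31.0 and 66.0 CPM after anti-JAML and 33.1, 26.8, 7.12 and 19.8 CPM after isotype (log2 1.17 ± 0.45, adjusted p = 0.853). Tpx2, a spindle assembly factor, had 86.4, 54.9, 60.4 and 48.1 CPM after anti-JAML and 52.0, 23.8, 24.9 and 42.3 CPM after isotype (log2 0.81 ± 0.29, adjusted p = 0.853). In both cases isotype library 1 overlapped the lower anti-JAML libraries. Cenpf, a kinetochore protein, was the member whose groups did not overlap, though they nearly touched (log2 0.52 ± 0.23, adjusted p = 0.89). It had 56.1, 65.1, 41.15 and 43.4 CPM after anti-JAML and 41.05, 31.4, 29.9 and 41.07 CPM after isotype. Cdc20, the activator of the anaphase-promoting complex, stood at 202, 133, 79.1 and 38.04 CPM after anti-JAML and 42.1, 43.1, 58.8 and 94.8 CPM after isotype, with library 4 of each group on the other side (log2 0.92 ± 0.45, adjusted p = 0.974). In a fit that also took each library's detected genes as a covariate, Cdc20 turned to -0.29 and the list median was 0.16. Over the fits that left out 1 library, Cdc20 ranged from 0.48 to 1.24, highest without isotype library 4 (adjusted p = 0.473). The list median ranged from 0.13 to 0.43 over these fits.

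DNA replication genes had 21 of 24 positive and a median of 0.37, yet none passed an unadjusted p of 0.05. Anti-PD-1 over isotype had 24 positive and a median of 1.07. Mcm7, a subunit of the replicative helicase, had 164, 124, 176 and 120 CPM after anti-JAML, against 62.0, 37.9, 31.7 and 172 CPM after isotype. Isotype library 4 lay near the top of the anti-JAML range (log2 0.94 ± 0.45, adjusted p = 0.961). Without isotype library 4 Mcm7 had 1.74 (adjusted p = 0.141) and the list median was 0.58. There 5 members (20.8%) were higher at an unadjusted p under 0.05, against 7.77% of all genes tested. Over the fits that left out 1 library, Mcm7 ranged from 0.69 to 1.74 and the list median from 0.18 to 0.60. With genes detected as a covariate the list median was 0.12.

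Mitotic genes share a short promoter element, the cell-cycle genes homology region, which the DREAM and MuvB complexes bind in many of them. A core form of it, TTTGAA, was searched on both strands (TTCAAA on the other) in the 250 bases before each RefSeq start site (GRCm38.p6). It was present for 7 of the 20 mitosis genes with a window (35%) and for 3 of the 20 DNA replication genes (15%). Over the genes tested it was 1249 of 9324 (13.4%), and over all RefSeq windows 5252 of 32851 (16%). The match is a description of the letters in the window and says nothing about binding. The last 100 bases before the start are shown for 3 mitosis genes to make the element and its place visible, with the matches in capitals.
Cdc20 (chr4:118437344-118437443, minus strand): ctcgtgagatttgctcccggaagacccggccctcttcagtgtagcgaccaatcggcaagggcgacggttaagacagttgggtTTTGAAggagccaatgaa
Cdk1 (chr10:69352913-69353012, minus strand): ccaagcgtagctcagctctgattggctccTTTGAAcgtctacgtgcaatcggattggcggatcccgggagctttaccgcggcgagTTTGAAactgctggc
Ube2c (chr2:164769829-164769928, plus strand): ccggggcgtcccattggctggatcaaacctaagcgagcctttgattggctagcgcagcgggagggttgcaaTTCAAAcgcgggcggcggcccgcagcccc
In all 3 sequences a match lay within the last 30 bases before the start. The 3 were taken from genes with a match in these 100 bases, so nearness to the start was partly set by that choice. For Mki67, another mitosis gene, the nearest match began 98 bases before the start.

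Glycolysis genes were nearly all positive. Of 17 tested it was 16, with a median log2 fold change of 0.31, but 0 were past an unadjusted p of 0.05. For anti-PD-1 over isotype it was 17, with a median of 0.675. The summed level was 19950, 20260, 14690 and 16600 CPM after anti-JAML and 16610, 11920, 14700 and 17090 CPM after isotype, and the ranges overlapped. Pfkp, a phosphofructokinase, had 448, 523, 254 and 285 CPM after anti-JAML, against 228, 98.9, 150 and 372 CPM after isotype (log2 0.83 ± 0.39, adjusted p = 0.942). The triosephosphate isomerase gene Tpi1 had 0.36 ± 0.17 and the glucose phosphate isomerase gene Gpi1 0.39 ± 0.19. Without isotype library 4, Pfkp had 1.26 (adjusted p = 0.434), and 17 of 17 members were positive with a median of 0.46. Of these, 6 (35.3%) were higher at an unadjusted p under 0.05, against 7.77% of all genes tested. Over the fits that left out 1 library, Pfkp ranged from 0.60 to 1.26 and the list median from 0.165 to 0.455. With genes detected as a covariate the median was 0.17.

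Mitochondrial genes went the other way. All 11 mitochondrially encoded genes tested were negative (median -0.33, 0 past an unadjusted p of 0.05), and so were 20 of 26 nuclear genes of oxidative phosphorylation (median -0.23). The share of counts in mitochondrially encoded genes was 1.54%, 2.68%, 2.98% and 3.04% after anti-JAML, against 3.08%, 2.98%, 4% and 2.09% after isotype, a difference that did not pass an exact permutation test (two-sided p = 0.371). The directions turned with genes detected as a covariate, to 0.43 and 0.21. Within the nuclear list Atp5b, a subunit of ATP synthase, had a positive value, at 0.46 ± 0.19 (adjusted p = 0.864). Sterol synthesis and uptake genes were positive for 15 of 21 (median 0.23).

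Genes of the unfolded protein response were positive for 18 of 22, with a median of 0.25. Dnajc3, a co-chaperone of the endoplasmic reticulum, stood at 130, 139, 139 and 143 CPM after anti-JAML, against 110, 96.8, 83.2 and 101 CPM after isotype. The groups did not overlap and the anti-JAML values were tight (log2 0.49 ± 0.15, adjusted p = 0.853). Pdia4, a disulphide isomerase, had 244, 242, 180 and 181 CPM after anti-JAML and 141, 115, 73.8 and 209 CPM after isotype, where isotype library 4 lay within the anti-JAML range (log2 0.65 ± 0.29, adjusted p = 0.898). Without that library Pdia4 had 0.95 (adjusted p = 0.434), the top of a range from 0.45 over the fits that left out 1 library. Heat shock genes were positive for 9 of 13 (median 0.04), with the chaperone Hsp90ab1 at 0.44 ± 0.20.

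Interferon genes had more negative than positive members. In the interferon gamma and MHC class I list 8 of 29 were positive (median -0.16), and the summed level was 29820 to 31180 CPM after anti-JAML and 32680 to 37780 CPM after isotype, without overlap. B2m, the invariant chain of MHC class I, carried much of that sum, with 9155, 9790, 11550 and 12960 CPM after anti-JAML and 14780, 16520, 15100 and 9865 CPM after isotype. Isotype libraries 1 to 3 were above all anti-JAML libraries and isotype library 4 was not (log2 -0.37 ± 0.23, adjusted p = 1). B2m had -0.50 without isotype library 4 (adjusted p = 0.475) and -0.28 without isotype library 2, the ends of its range when 1 library was left out. With genes detected as a covariate B2m turned to 0.09. Of the single genes in this list, 0 had ranges without overlap. Sums without overlap were also seen for tissue residency genes, at 4208 to 5355 CPM after anti-JAML and 5660 to 7133 CPM after isotype. Sterol synthesis and uptake genes went the other way, at 1286 to 1561 CPM after anti-JAML and 1132 to 1282 CPM after isotype. Iigp1, an interferon-induced GTPase, had -0.72 ± 0.33 (adjusted p = 0.909). Of type I interferon response genes 11 of 25 were positive (median -0.12). Oas1a, a sensor of double-stranded RNA, had 53.5, 55.6, 73.5 and 75.6 CPM after anti-JAML and 106, 96.4, 128 and 67.7 CPM after isotype (log2 -0.62 ± 0.27, adjusted p = 0.88). Of apoptosis and survival genes 8 of 20 were positive (median -0.15).

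The anti-JAML difference in Treg cells was then set against the same difference in CD8 T cells of the same study, which comes from other libraries. In CD8 cells the fit called 0 of 12648 genes, with 1483 (11.7%) at an unadjusted p under 0.05. The test of the difference between the 2 populations, an interaction term over all 24 libraries, called 0 of 14591 genes (0%) in edgeR, with a smallest adjusted p of 0.0961. At an unadjusted p under 0.05 it had 656 positive (4.5%) and 568 negative (3.89%) genes, and DESeq2 called 283. The smallest p was that of Ttl, at 0 in the Treg isotype libraries. Among positive values Kif2c followed, with an interaction of 2.47 ± 0.48 on the log2 scale (adjusted p = 0.109). In CD8 cells Kif2c stood at 35.9, 42.8, 27.3 and 44.5 CPM after anti-JAML and 41.5, 46.9, 35.8 and 51.2 CPM after isotype, so the Treg isotype libraries were the low ones.

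Mitosis genes differed in 1 direction between the populations. All 24 interaction values were positive, with a median of 0.78 and 11 at an unadjusted p under 0.05, against 51.5% positive and a median of 0.04 over all genes. In CD8 cells 3 of the 24 were positive after anti-JAML (median -0.54). Tpx2 had 67.9, 72.6, 60.5 and 74.9 CPM after anti-JAML in CD8 cells and 116, 123, 114 and 91.9 CPM after isotype, and its interaction was 1.53 ± 0.36 (adjusted p = 0.368). Glycolysis genes had 14 of 17 positive interactions (median 0.62, 8 at an unadjusted p under 0.05). DNA replication genes had 22 of 24 (median 0.65, 2 at that level).

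Resting and naive T-cell genes showed the opposite pattern. None of the 16 interactions was positive, the median was -1.59, and 9 were negative at an unadjusted p under 0.05. In Treg cells 6 of these 16 genes were positive (median -0.11), while in CD8 cells 16 were (median 1.67). Tcf7, which encodes the transcription factor TCF-1, stood at 28.3, 33.7, 11.3 and 12.02 CPM after anti-JAML in Treg cells and 12.3, 44.7, 41.8 and 32.9 CPM after isotype, with overlapping ranges. In CD8 cells it had 93.2, 364, 97.6 and 231 CPM after anti-JAML and 16.7, 19.2, 48.7 and 56.4 CPM after isotype, without overlap. The interaction of Tcf7 was -3.07 ± 0.76 (adjusted p = 0.368), and that of Klf2, a factor of quiescence and recirculation, was -2.62 ± 0.74. CD8 anti-JAML libraries 2 and 4 stood apart, the first with 403 CPM of the macrophage gene Lyz2 against 0 to 5.37 CPM in the rest of its group and the second with 6.89% mitochondrially encoded counts against 2.44% to 3.54%. Without the first of them alone the resting list had 1 of 16 positive and a median of -0.87, with 5 negative at an unadjusted p under 0.05. Without both it had 0 of 16 positive with a median of -1.01, and mitosis had 23 of 24 positive with a median of 0.72. The negative interactions with the smallest p were those of the adaptor gene Gab3 (-2.35 ± 0.45, adjusted p = 0.109), of Nt5dc2, which was at 0 in every Treg anti-JAML library, and of the Schlafen gene Slfn1 (-1.57 ± 0.32, adjusted p = 0.111).

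**Figure D5:**
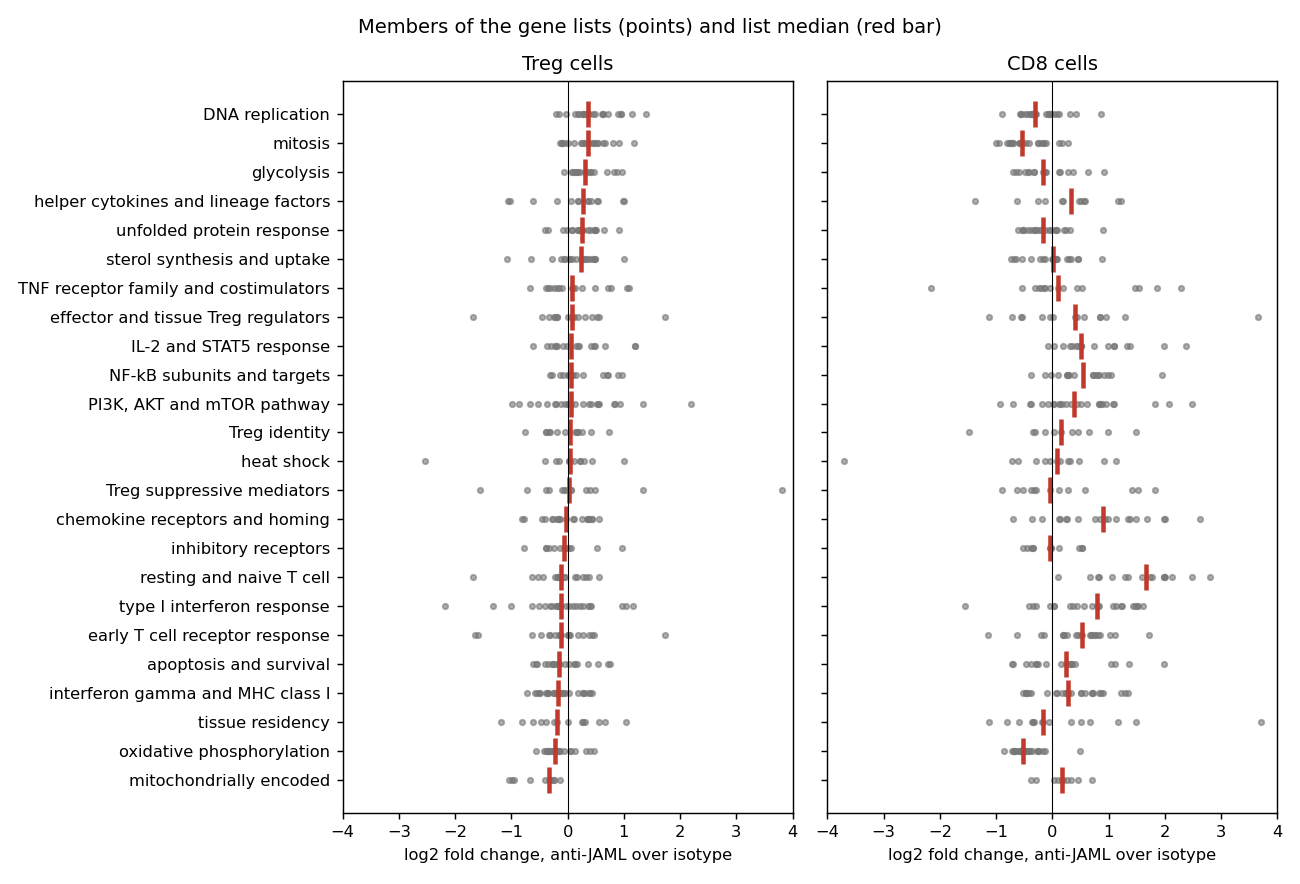
Log2 fold change, anti-JAML over isotype, of the members of each gene list (grey points) and the list median (red bar), in Treg cells (left) and CD8 cells (right); members beyond 4 on either side are not drawn but count in the median. Mitosis, DNA replication and glycolysis medians are positive in Treg cells and negative in CD8 cells, and the resting and naive list has -0.11 in Treg cells and 1.67 in CD8 cells.

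Markers of other cells were present at widely differing levels. B-cell, melanoma, neutrophil, NK, gamma-delta T and stromal sums overlapped between the groups. The B and plasma cell sum, led by Ighm, was 759 to 1086 CPM after anti-JAML and 696 to 1219 CPM after isotype. Of CD8 T-cell markers 2 of 8 were positive, and the sum was 2733 to 7211 CPM after anti-JAML and 4819 to 8165 CPM after isotype. It came mostly from Ccl5 and Nkg7, effector genes that Treg cells also express. Nkg7 stood at 1224, 1581, 2217 and 3520 CPM after anti-JAML and 3569, 3573, 2874 and 2170 CPM after isotype. Erythroid markers summed to 0.632, 9.15, 1.48 and 1417 CPM after anti-JAML and 0 to 1.10 CPM after isotype, so anti-JAML library 4 held by far the most. The haemoglobin gene Hbb-bs stood at 0, 17.5, 0 and 1564 TPM after anti-JAML and was listed at 0 after isotype. Dendritic-cell markers, led by the MHC class II chain gene Cd74, summed to 348 to 2770 CPM after anti-JAML and 902 to 2076 CPM after isotype. The part of these cells in the values above was not tested.

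The number of genes that passed depended on isotype library 4. That library lay close to the anti-JAML libraries, so leaving it out favours a larger difference between the groups. Without isotype library 4, edgeR called 5 genes of 13545, and 1053 were higher (7.77%) and 360 lower (2.66%) at an unadjusted p under 0.05. Among them were Sugp2, Rtel1, Trip10 and Ptpn13, which were named because they passed there. Sugp2 had 23.6, 24.7, 14.2 and 17.4 CPM after anti-JAML and 0.0532, 0, 0 and 31.8 CPM after isotype. In each of these 4 genes, isotype libraries 1 to 3 were at or near 0 and isotype library 4 was within or above the anti-JAML range, or for Ptpn13 below it. Without both isotype library 4 and anti-JAML library 4, 2 genes were called. Foxp3 had 0.98 ± 0.36 without isotype library 4 (adjusted p = 0.473), Cxcr6 -0.92 ± 0.20 (adjusted p = 0.228) and Rcor1 -2.24 ± 0.35 (adjusted p = 0.0554). Over the fits that left out 1 library, the ranges were 0.495 to 0.979 for Foxp3, -0.957 to -0.698 for Cxcr6 and -2.24 to -1.865 for Rcor1.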

How the data were processed

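Treg and CD8 T cells sorted from tumours were measured as 24 libraries in 6 groups of 4, grouped by their labels. The authors deposited whole-number counts of reads per gene, without normalization, and a table of TPM, which scales for gene length and keeps no depth; TPM were used here to check the labelled cell type. The build mm10 and the tools STAR 2.7.3a, fastp 0.20.1, deepTools 3.3.1 and SAMtools come from the submitters' processing notes, which state no role or order here. Not given in the sources used here are the counting tool and its strand setting; overlapping genes, antisense genes and near-identical copies are therefore uncertain. Of 54957 gene rows, 0 named no gene and 54209 matched GENCODE M21, which gave positions.

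Counts were tested in R 4.3.3 with edgeR 4.0.16 (robust quasi-likelihood F test, TMM, filterByExpr at min.count 10 and min.total.count 15), two-sided, with Benjamini-Hochberg adjustment over all genes tested and a threshold of 0.05. All 12 Treg libraries entered the fit, and all 24 entered the interaction. DESeq2 1.42.0, limma-voom (limma 3.58.1), RLE size factors, other filters, a fit on the 8 libraries alone, genes detected as a covariate, the replicate number as a block and leaving out each library were alternatives. The scripts were tested on simulated data, but the condition to pass was set at a spread between libraries far below that of these data. It does not show how well differences are recovered here. Leaving out 2 libraries together was chosen after seeing the data. CPM use TMM-scaled totals, which were 11920543 to 22556460 counts before scaling. The common biological coefficient of variation was 0.893. Pairs of libraries within the compared groups differed by more than sampling noise (chi-square per degree of freedom 65.1 to 159).

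The comparison and the gene lists were chosen with earlier results of these data known. Named genes are fixed genes of the target and lineage, the 10 with the smallest p in each direction without predicted or clone-named symbols, up to 4 of each list and the 3 of each sign in the interaction; some were left out for length, and a few genes are not reported here. Genes at 0 in a whole group are given as bounds against 3 counts. Lists are described by counts and medians, with no set test.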

Additional observations from a re-analysis of the deposited data

Results flagged for a closer look

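Within groups of 4 libraries, 9 of 181 sets of values (4.97%) had 1 library that lay far from the others by Dixon's test at the 95% level, a rate that chance gives about 1 in 20 times. Jaml was read in 1 anti-JAML library (library 3, 0.212 CPM) and 1 isotype library (library 4, 0.826 CPM), and at 0 in the rest. Isotype library 4 stood alone in its group for Foxp3 (106 CPM against 59.0 to 65.7), Crtam (29.0 CPM) and Gzma (1.93 CPM, with 0 in the others). Isotype library 1 stood alone for Ciart (33.8 CPM) and Itga4 (156 CPM). Among anti-JAML libraries, library 1 stood alone for Prpf8 (142 CPM) and library 4 for Gzma (14.9 CPM).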

How the results depend on the processing

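edgeR called 0 genes under the RLE, filter, 8-library, block and covariate alternatives and voom called 0, while DESeq2 called 87. Genes higher at an unadjusted p under 0.05, 471 as reported, were 768 with voom, 1217 with no filter on low counts, 274 with a minimum count of 50, 208 with the 8 libraries alone and 238 with genes detected as a covariate. Genes lower were 539 with no filter and 154 with the 8 libraries alone, against 228 as reported. The share of such genes that was higher was 67.4% as reported and 57.5% with the 8 libraries alone. It was 55.1% with the covariate and 74.5% without isotype library 4. Leaving out 1 library gave 0 to 5 calls, 441 to 1053 higher and 195 to 360 lower genes, with each maximum without isotype library 4. The difference in genes detected ranged from 844.8 to 1478. Without anti-JAML 4 and isotype 4 together there were 2 calls, 1138 higher and 383 lower. The interaction had 283 calls in DESeq2 and 0 to 19 without 1 library, namely 19 without Treg isotype 4, 2 without Treg isotype 2 or anti-JAML 2, 1 without Treg isotype 1 or anti-JAML 1, and 0 without CD8 anti-JAML 2 and 4 together.

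Same-numbered anti-JAML and isotype libraries did not deviate together (correlations -0.105, -0.0241, -0.00815 and -0.163). These correlations cannot show whether libraries of the same number were handled together, and the labels do not say. With the replicate number as a block, 0 genes were called, and 328 were higher and 130 lower at an unadjusted p under 0.05. The interaction, with the number as a block within each population, called 0. No fit linked Treg and CD8 libraries of the same number.

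With genes detected as a covariate these log2 fold changes turned: Pdcd1 to -0.36, Cd4 to -0.12, Maf to 0.015, Cdc20 to -0.29, Rrm1 to -0.12, Mcm3 to -0.077, B2m to 0.088, mt-Co1 to 0.375 and Nkg7 to 0.12. Leaving out 1 library turned some genes, and their ranges were -4.77 to 3.03 for Jaml, -0.17 to 0.25 for Pdcd1, -0.076 to 1.39 for Lyz2, -0.73 to 0.055 for Cd74 and -0.015 to 0.29 for Ighm. The cause was not tested. With libraries thinned to 13911087 counts, the difference in genes detected was 1142 (exact permutation p = 0.114).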
